A study of Homo sapiens with 8 samples.

Results

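Neuroendocrine and neuronal vesicle genes are described here in prostate cancer cells with and without extra miR-375: SYP, CHGA, CHGB, ENO2, SCG2, INSM1, NCAM1, STMN4 and the repressor REST. The 9 genes were chosen by symbol, and all 9 were found among the 60622 genes of the deposited count table. Of these, 6 had enough counts to be tested (SYP, ENO2, SCG2, NCAM1, STMN4 and REST), and CHGA, CHGB and INSM1 did not. Poly(A) RNA was sequenced from LNCaP, an androgen-responsive line from a lymph node metastasis grown in RPMI-1640 with 10% fetal bovine serum, and from PC3, a line from a bone metastasis with little androgen receptor, grown in the same medium with 20% serum. Each line was studied as a control and with miR-375 overexpressed, with 2 libraries in each of the 4 groups. The means and duration of the overexpression and the treatment of the controls were not given in the sources used here, and line and serum share cannot be told apart. Nothing in the labels states that replicate libraries were grown as separate cultures, so the spread between replicates may be technical. In the main fit each p-value rests on this spread in all 4 groups together, moderated towards that of other genes.

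Neuroendocrine cells store peptides in dense-core granules and release them by the vesicle machinery that neurons use. The granins CHGA, CHGB and SCG2 are granule cargo, SYP is a membrane protein of small vesicles, and ENO2 is the neuronal form of the glycolytic enzyme enolase; pathologists stain for several of these to recognise neuroendocrine prostate cancer. REST is a zinc finger repressor that binds RE1 elements and keeps neuronal genes silent in other tissues, while INSM1 is a transcription factor of endocrine progenitors. miR-375 is itself abundant in pancreatic islets and other neuroendocrine cells, and a microRNA lowers messenger RNAs that pair with its seed.

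The overexpressed microRNA is shown first, because its seed sets which letters can be looked for in the members. In RefSeq (GRCh38.p14) the mature 3p strand lies at chr2:219001648-219001669 on the minus strand, and capitals mark the seed, bases 2 to 8.
hsa-miR-375-3p: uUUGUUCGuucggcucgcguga
The longest 3′ UTR of each gene in GENCODE 29 (GRCh38) was searched for the complement of this seed. CGAACAA, which pairs with bases 2 to 8, stood in 209 of 19133 genes, or 1.09%. CGAACAAA, the same letters followed by A, stood in 87 of them, or 0.455%. GAACAA, which pairs with bases 2 to 7 and lies within both longer words, stood in 5739. Among the 9 members, REST alone held the longer words, at base 1018 of a 3692-base UTR. The median UTR of the 19133 genes was 1104 bases, and the shares above are not matched for length. The REST site is printed because no other member has it, with capitals on the 7 matching bases.
REST: actaggttgcatgtCGAACAAatttttatc
SYP held the 6-base match at bases 431 and 1427 of 1483, and NCAM1 held it at base 443 of 3049. These are shown beside the REST site for comparison, with the 6 matching bases in capitals. Each is followed by A, as the REST site is, and the share of genes with GAACAAA is not given here.
SYP, first: cagcaatgcctgcctGAACAAaggccgtta
SYP, second: cccctccccaaggaaGAACAAatatgattc
NCAM1: taagactaatcgaatGAACAAagtccacag
INSM1, STMN4 and REST also held 6-base matches, and CHGA, CHGB, ENO2 and SCG2 held none. A match is a description of the letters, not a functional site.

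With miR-375, SYP rose in both lines, by 5.41-fold in LNCaP and 3.14-fold in PC3, and ENO2 rose in both by 1.38-fold and 1.34-fold. In LNCaP STMN4 rose 3.76-fold and REST fell 1.62-fold. The granins CHGA and CHGB and the transcription factor INSM1 had at most 11 counts in any library, and SCG2, a granin at 20 to 29 counts in the PC3 libraries and 2 to 8 in those of LNCaP, was not called in either line. Levels are CPM, counts scaled to library size and by TMM, and changes compare miR-375 with control as a log2 fold change ± SE. The words rose and fell are kept for genes where the adjusted p of edgeR's quasi-likelihood test (Benjamini-Hochberg over 21066 genes) was under 0.05. In LNCaP 3 members rose and 1 fell, against 32.6% of all tested genes called, 13.9% higher and 18.7% lower. In PC3 2 rose and none fell, against 43.0% called, 22.2% higher and 20.8% lower. The calls in LNCaP are 4 of the 6 tested and in PC3 2 of 6, numbers too small to set the members apart from a background this wide.

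**Figure D1:**
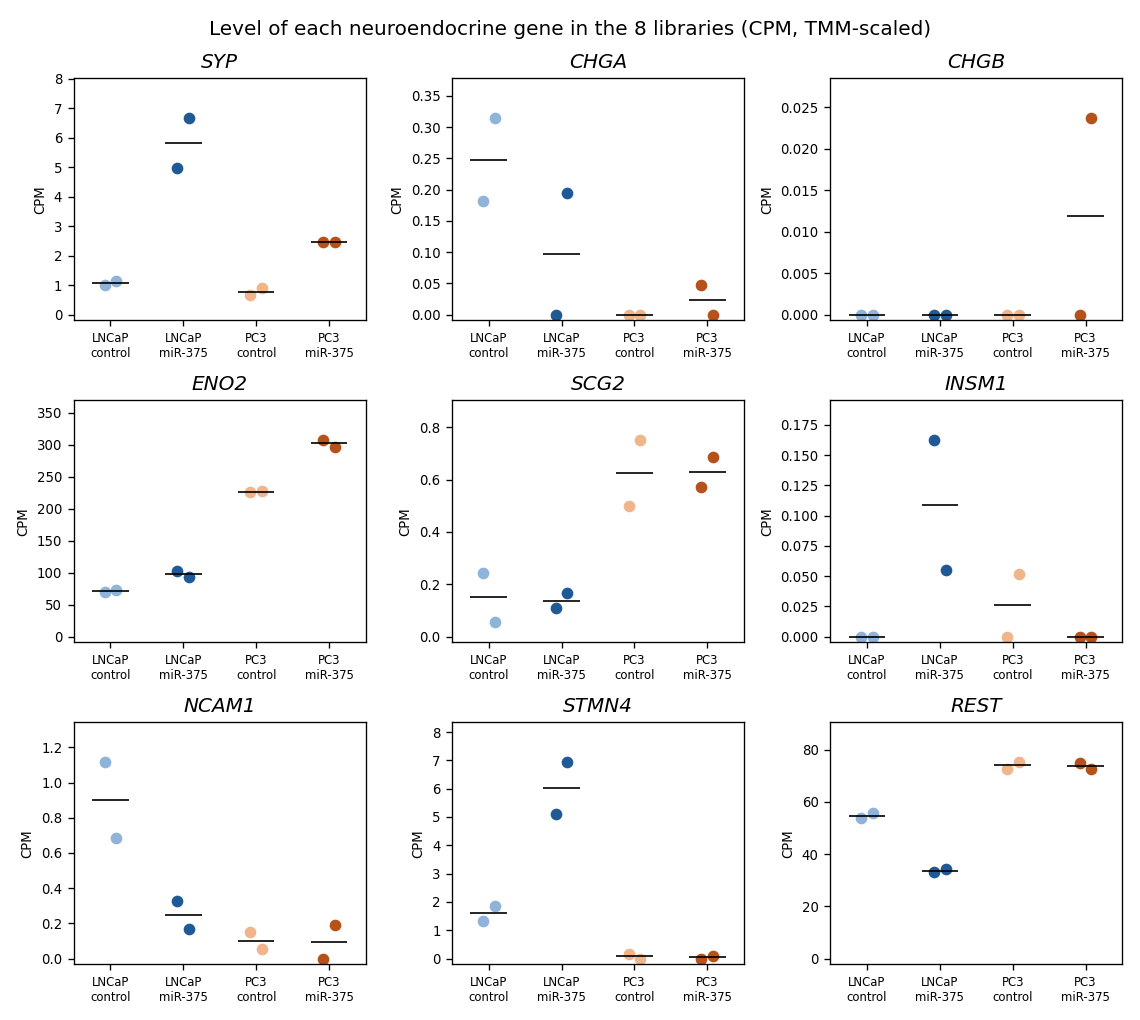
Level of each of the 9 genes in CPM (vertical axes, each from 0 on its own scale) in the 8 libraries, with points for libraries and a line for the mean of each group. SYP and ENO2 stand higher with miR-375 in both lines, while REST stands lower with miR-375 in LNCaP and at 72.5 to 75.3 CPM in all 4 PC3 libraries.

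SYP (ENSG00000102003, chrX:49187804-49200259, minus strand, GRCh38) encodes synaptophysin, the most abundant membrane protein of synaptic vesicles. The LNCaP controls held 0.997 and 1.15 CPM (33 and 40 counts), and LNCaP with miR-375 held 4.96 and 6.67 CPM (183 and 241 counts). Both miR-375 libraries stood above both controls, and the log2 fold change was 2.43 ± 0.29 (adjusted p = 8.35e-09). In PC3 the controls held 0.674 and 0.882 CPM (27 and 34 counts), and the miR-375 libraries held 2.45 and 2.44 CPM (103 counts each). Again the groups did not overlap, and the log2 fold change was 1.65 ± 0.31 (adjusted p = 2.39e-05). The change in LNCaP exceeded that in PC3 by 0.78 ± 0.43 on the log2 scale, with a 95% interval from -0.09 to 1.65 (adjusted p = 0.196), so the lines were not shown to differ in it. The control libraries of the lines were not shown to differ in SYP either, at 1.07 ± 0.105 CPM (LNCaP) and 0.778 ± 0.147 CPM (PC3; SD, n = 2, adjusted p = 0.212 by edgeR). SYP overlaps the antisense gene SYP-AS1 on the opposite strand, which had 0 counts in all 8 libraries.

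ENO2 (ENSG00000111674, chr12:6913745-6923698, plus strand) encodes gamma-enolase, known in pathology as neuron-specific enolase. The LNCaP controls held 69.6 and 72.2 CPM, and the miR-375 libraries held 102.0 and 93.8. Neither pair overlapped the other, and the log2 fold change was 0.47 ± 0.05 (adjusted p = 1.42e-10). In PC3 the controls held 225 and 227 CPM and the miR-375 libraries 308 and 297. ENO2 was therefore higher with miR-375 in every library of that line too, by 0.42 ± 0.04 (adjusted p = 4.56e-11). The 2 changes differed by 0.05 ± 0.06 (95% interval from -0.08 to 0.17, adjusted p = 0.660), and by 0.17 (adjusted p = 0.0453) without the second LNCaP miR-375 library (range 0.0453 to 0.877 over the alternatives). Between the controls, ENO2 was 3.19-fold lower in LNCaP than in PC3 (log2 difference -1.67 ± 0.04, adjusted p = 1.18e-28). ENO2 was the most abundant member per length of exon, at 16.6 CPM per kilobase in control LNCaP and 52.8 in control PC3.

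The promoters of these genes, the 2 members that rose in both lines, are printed for the letters before their starts. RefSeq (GRCh38.p14) windows of 250 bases upstream were found for 4 members, SYP, CHGA, ENO2 and REST. Capitals mark the motifs found, in either orientation.
SYP, chrX:49200194-49200443, minus strand: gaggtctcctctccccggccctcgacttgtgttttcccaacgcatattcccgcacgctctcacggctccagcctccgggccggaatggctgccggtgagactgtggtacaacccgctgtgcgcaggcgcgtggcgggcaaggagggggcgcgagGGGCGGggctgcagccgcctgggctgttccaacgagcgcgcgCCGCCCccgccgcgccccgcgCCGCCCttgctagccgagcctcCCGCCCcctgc
ENO2, chr12:6914330-6914579, plus strand: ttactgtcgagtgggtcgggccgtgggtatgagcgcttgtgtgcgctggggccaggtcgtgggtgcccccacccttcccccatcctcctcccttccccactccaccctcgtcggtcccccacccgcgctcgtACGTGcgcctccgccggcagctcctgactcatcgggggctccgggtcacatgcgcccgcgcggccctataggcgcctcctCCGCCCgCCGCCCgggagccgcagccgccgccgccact
Windows were searched on both strands for 5 words: TTCAGCACC and GGACAG (the left and right parts of an RE1 element), TGACGTCA (the cAMP response element), ACGTG (the core of a hypoxia response element) and GGGCGG (the GC box). Of 35116 RefSeq windows, 0.288% held TTCAGCACC, 17.2% GGACAG, 1.65% TGACGTCA, 18.5% ACGTG and 42.6% GGGCGG. SYP held 4 GC boxes, at 96, 54, 33 and 11 bases before its start, and no other word. ENO2 held ACGTG at 118 bases and GC boxes at 38 and 31 bases before its start. CHGA held TGACGTCA at 54 bases and a GC box at 66. REST has 2 annotated starts, with GC boxes before both and GGACAG at 170 bases before the second. TTCAGCACC was in none of the windows of these 4 genes, which says only that the letters are not there.

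Of the granins, which drive the formation of dense-core granules, CHGA and CHGB were close to absent, and SCG2 was low in LNCaP and measured in PC3. CHGA (chr14:92923080-92935293, plus strand), the granin that is measured in serum as a tumour marker, had 6 and 11 counts in the LNCaP controls and 0 and 7 with miR-375. In PC3 it had 0 and 0 counts in the controls and 2 and 0 with miR-375. Summed over the 2 libraries this is 17 in the LNCaP controls (exact Poisson 95% interval from 9.90 to 27.2) and 7 with miR-375 (from 2.81 to 14.4), intervals that overlap and cover counting error only. A fit with no filter on low counts did not call that change (adjusted p = 0.729). The same fit called CHGA higher in the LNCaP than in the PC3 controls (17 counts against 0, adjusted p = 0.0151). Fits with a library left out kept the filter on low counts, and CHGA passed it in most of them. There the call ended without the first or the second PC3 control and held in the others that tested CHGA. CHGB (chr20:5911430-5925361, plus strand), the second chromogranin, had 0 counts in 7 libraries and 1 count in a PC3 miR-375 library. SCG2 (chr2:223596940-223602503, minus strand), secretogranin II, the precursor of secretoneurin, had 8 and 2 counts in the LNCaP controls and 4 and 6 with miR-375. It had 20 and 29 counts in the PC3 controls and 24 and 29 with miR-375, which in CPM was 0.499 and 0.753, then 0.572 and 0.688. The miR-375 libraries lay within the range of the controls in both lines, and neither change was called (adjusted p = 0.975 in LNCaP and 1 in PC3). Between the controls SCG2 was lower in LNCaP, by -2.06 ± 0.76 on the log2 scale (adjusted p = 0.0137), but that call ended without the second LNCaP control (-1.39, adjusted p = 0.153) or the second PC3 control (-1.73, adjusted p = 0.0822), with a range of 0.00666 to 0.153 over the alternatives. A floor of 3 counts is 0.0712 to 0.0907 CPM in these libraries, and for CHGA and CHGB a change with miR-375 near that level was not detectable at this depth.

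NCAM1 (chr11:112961247-113278436, plus strand) encodes CD56, the neural cell adhesion molecule. It stood at 1.12 and 0.687 CPM (37 and 24 counts) in the LNCaP controls and at 0.325 and 0.166 CPM (12 and 6 counts) with miR-375. Both miR-375 libraries lay below both controls, with a log2 fold change of -1.86 ± 0.79, which was not called (adjusted p = 0.0700). The same difference was called with limma-voom (adjusted p = 0.0388), with LNCaP fitted alone (0.00393), with counts halved (0.0120) and without either PC3 miR-375 library (0.0423 and 0.0493), and over all alternatives the adjusted p ran from 0.00393 to 0.454. In PC3 the controls had 6 and 2 counts and the miR-375 libraries 0 and 8, with no order between the groups. Among controls, NCAM1 was 8.64-fold higher in LNCaP (log2 difference 3.11 ± 0.88, adjusted p = 0.00173), with log2 differences of 4.04 without the first PC3 control and 2.56 without the second. The antisense gene NCAM1-AS1 had at most 2 counts in a library.

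STMN4 encodes a stathmin, one of the tubulin-binding phosphoproteins of neurons. It held 1.33 and 1.86 CPM (44 and 65 counts) in the LNCaP controls and 5.10 and 6.95 CPM (188 and 251 counts) with miR-375. The LNCaP groups did not overlap, and the log2 fold change was 1.91 ± 0.35 (adjusted p = 3.45e-05), a call that ended with DESeq2 (1.96, adjusted p = 0.241, the highest over the alternatives, where the lowest was 1.02e-12). In PC3 it had 6 and 0 counts in the controls and 0 and 4 with miR-375, so no fold change can be read there. The PC3 fit gave -0.65 ± 1.11 (adjusted p = 0.699). The difference of the changes between lines was 2.56 ± 1.22 (adjusted p = 0.127). It rested on single PC3 libraries, turning to -2.02 without the first PC3 control and passing the threshold at 3.52 without the second PC3 control (adjusted p = 0.0196) and at 6.49 without the second PC3 miR-375 library (0.0313), against up to 0.649 under the others. Between the controls STMN4 was 20.1-fold higher in LNCaP (4.33 ± 0.60, adjusted p = 5.03e-08), a size set by the 6 counts of 1 PC3 control. It was 3.39 on the log2 scale without the second PC3 control, and without the first the PC3 controls are at 0 and give no fold.

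INSM1 (chr20:20368121-20370949, plus strand) had 0 and 0 counts in the LNCaP controls and 6 and 2 with miR-375. In PC3 it had 0 and 2 counts in the controls and 0 and 0 with miR-375. The 8 counts in LNCaP with miR-375 have an exact Poisson 95% interval from 3.45 to 15.8, and a fit with no filter on low counts did not call the LNCaP change (adjusted p = 0.347). REST (ENSG00000084093, chr4:56907876-56966678, plus strand) was readily measured in every library. The LNCaP controls held 53.7 and 55.6 CPM, and LNCaP with miR-375 held 33.0 and 34.3. Both miR-375 libraries were below both controls, a log2 fold change of -0.70 ± 0.06 (adjusted p = 6.93e-12). In PC3 the controls held 72.6 and 75.3 CPM and the miR-375 libraries 75.0 and 72.5. The PC3 groups overlapped, and the change was -0.00 ± 0.06 with a 95% interval from -0.12 to 0.11 (adjusted p = 0.999). The LNCaP change minus the PC3 change was -0.69 ± 0.08 (95% interval from -0.86 to -0.53, adjusted p = 1.75e-08), and REST was the only tested member so called, against 26.5% of all tested genes, 10.9% higher and 15.6% lower. The 2 changes use different control libraries. Among controls REST was 1.35-fold lower in LNCaP (-0.44 ± 0.06, adjusted p = 1.25e-08).

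REST exons overlap exons of NOA1, a mitochondrial GTPase gene, on the opposite strand, with the strand setting of the counting not given in the sources used here. NOA1 had 1874 to 2967 counts in a library. It changed by -0.34 ± 0.05 in LNCaP (adjusted p = 3.76e-06) and by -0.17 ± 0.06 in PC3 (adjusted p = 0.0158). The part of shared reads in the REST values was not tested.

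**Figure D2:**
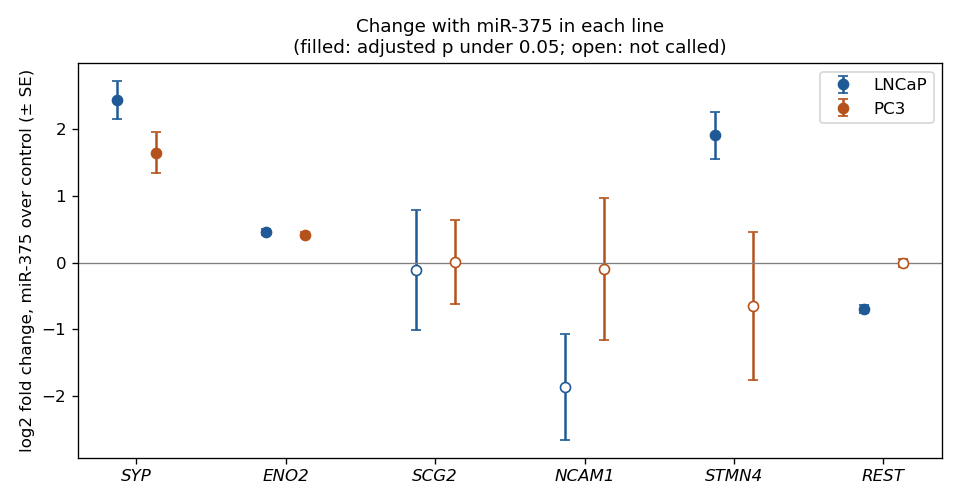
Log2 fold change of miR-375 over control with SE (vertical axis) for the 6 tested genes in LNCaP (blue) and PC3 (orange), with filled points for an adjusted p under 0.05 and open points for the rest. SYP and ENO2 are filled in both lines, STMN4 and REST in LNCaP alone, and for SCG2, NCAM1 and STMN4 in PC3 the bars are longer than the changes.

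In the controls of the 2 lines, LNCaP against PC3, 2 members were higher in LNCaP (NCAM1 and STMN4) and 3 lower (ENO2, SCG2 and REST), against 80.4% of all tested genes called, 41.2% higher and 39.2% lower. This comparison shares its control libraries with the miR-375 comparisons and is no separate support for them. Per kilobase of exon the order in the LNCaP controls was ENO2 (16.6 CPM), REST (6.84), STMN4 (0.484), SYP (0.205), CHGA (0.0800), NCAM1 (0.0709), SCG2 (0.0550), then CHGB and INSM1 at 0 counts. CHGA, NCAM1 and SCG2 are not resolved from each other, with SDs of 0.0305, 0.0239 and 0.0480 over 2 libraries. In LNCaP with miR-375, STMN4 (1.83 ± 0.398) and SYP (1.12 ± 0.232) were the next after ENO2 (22.9 ± 1.36) and REST (4.22 ± 0.115), values with SD over 2 libraries. In the PC3 controls ENO2 (52.8) and REST (9.27) were followed by SCG2 (0.230 ± 0.0659) and SYP (0.149 ± 0.0283), which differ by less than the sum of their SDs. With miR-375 in PC3, SYP (0.470) was above SCG2 (0.232).

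The libraries held 33973861 to 41890528 counts, and replicates of each group correlated at 0.988 to 0.990 on the log2 scale across genes. Of 12 markers listed for LNCaP, 12 were higher in the LNCaP controls, and of 12 listed for PC3, 10 were higher in the PC3 controls. The 2 exceptions were UCHL1, a neuronal hydrolase at 7.496 CPM in LNCaP and 0 in PC3, and KRT5, under 1 CPM in both. In a bulk library, fewer cells of a type and less RNA per cell cannot be told apart. Of 10 markers of neurons, 6 passed the filter, and their summed level was 33.6 to 35.0 CPM in the LNCaP controls and 28.97 to 32.7 with miR-375. In PC3 the sum was 22.4 to 23.7 CPM in the controls and 25.1 to 25.8 with miR-375. Most of this sum was 1 gene in each line, the glutamate receptor subunit GRIN1 at 31.3 ± 1.02 CPM in the LNCaP controls and the vesicle calcium sensor SYT1 at 18.9 ± 0.756 CPM in the PC3 controls. Of the defining markers of glutamate and GABA neurons, SLC17A6 and GAD2 were at 0 in every group, while GAD1 stood at 1.25 to 2.65 CPM and SLC17A7 at 0.876 to 4.03 CPM in group means. Summed markers of glia were 122 to 130 CPM in PC3 controls and 177.6 to 177.8 with miR-375, and those of fibroblasts 173 to 185 and 398 to 417. The glia sum was mostly MBP, at 125 ± 5.46 CPM in PC3 controls and 176 ± 0.323 with miR-375. The fibroblast sum was mostly COL1A1, at 139 ± 4.03 and 373 ± 15.7 CPM. Of its other genes in PC3, PDGFRA went from 33.7 ± 4.47 to 23.2 ± 1.07 CPM and LUM from 0.922 ± 0.457 to 2.64 ± 0.161. Glia sums in LNCaP were 54.5 to 55.6 CPM in controls and 51.8 to 57.2 with miR-375. Fibroblast sums there were 47.2 to 56.5 and 54.4 to 58.8 CPM. The part of these markers in the results was not tested.

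The wider machinery moved unevenly around SYP. Gene lists written from general knowledge, members left out, gave 11 of 34 tested genes of the synaptic vesicle and exocytosis list risen and 4 fallen in LNCaP, with 44.1% called against 32.6% of all genes and a median log2 fold change of 0.32 against 0.00. In PC3 12 rose and 7 fell, with 55.9% called against 43.0% and a median of 0.41 (0.21 with genes at 0 counts in a group set to the floor) against 0.02. With miR-375 SYT7, a calcium sensor of slow exocytosis, rose from 56.9 ± 3.62 to 90.1 ± 1.85 CPM in LNCaP and by 0.87 in PC3. SYNGR1, a vesicle protein related to SYP, rose by 0.65 ± 0.08 in LNCaP, as did PCLO, a scaffold of the active zone, by 1.27 ± 0.19. CPLX1, which clamps vesicle fusion, rose by 1.24 ± 0.16 in PC3, and RIMS1, a scaffold of vesicle release sites, by 1.71 ± 0.25, or by 1.14 without the first PC3 control and 2.62 without the second. UNC13B, a priming factor, fell by 0.90 in LNCaP and rose by 0.61 in PC3, while STX1A, a fusion SNARE, fell by 0.93 in PC3. In both lines 5 genes rose (SYNGR1, SYT7, SYT11, CPLX1 and PCLO), 2 fell (SYPL1 and RAB27B) and 4 went opposite ways. The same shares over all tested genes are not given here.

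Genes of granins and prohormone processing other than the members gave 4 risen and 2 fallen of 16 in LNCaP, where 37.5% were called against 32.6% of all genes. In PC3 10 rose and 1 fell, with 68.8% called against 43.0%. The median was 0.15 in LNCaP and in PC3 0.70 (0.48 with genes at 0 counts set to the floor). CPE, the carboxypeptidase that trims prohormones, rose from 98.2 ± 1.64 to 124 ± 2.00 CPM in LNCaP and from 43.9 ± 0.885 to 144 ± 0.233 in PC3. PCSK1N, an inhibitor of a prohormone convertase, rose from 14.4 ± 1.58 to 27.9 ± 2.17 CPM in LNCaP and by 0.87 in PC3. The 2 that fell in LNCaP were CADPS2 and DDC. CADPS2 fell from 40.3 ± 3.34 to 25.7 ± 0.816 CPM there and rose in PC3 from 26.8 ± 0.486 to 35.9 ± 3.54. DDC fell from 594 ± 24.6 to 537 ± 8.72 CPM, a call that ended with scaling by total counts alone (-0.022, adjusted p = 0.699). ADM, the gene of adrenomedullin, rose by 2.03 ± 0.09 in PC3, and PTPRN, a membrane protein of dense-core granules, rose by 1.93 ± 0.33. The convertase genes PCSK1 and PCSK2 did not pass the filter, with at most 14 and 16 counts in a library. SCG5 fell and VGF rose in PC3, but the call of VGF ended without the second PC3 control (adjusted p = 0.0655) and that of SCG5 without either of the second PC3 libraries (0.0782 and 0.188) and with DESeq2 (0.0503).

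Beside STMN4, the stathmins and neuronal cytoskeleton list had 7 genes risen and 4 fallen of 17 in LNCaP and 4 risen and 3 fallen in PC3. The called share was 64.7% against 32.6% of all genes in LNCaP, with a median of 0.40, and 41.2% against 43.0% in PC3, with a median of 0.04. STMN1, the stathmin of dividing cells, fell in both lines, from 181 ± 8.25 to 114 ± 1.47 CPM in LNCaP and from 171 ± 3.65 to 99.1 ± 0.617 in PC3. STMN3 rose by 0.62 ± 0.13 in LNCaP. MAPT, the gene of tau, rose in both, by 0.59 ± 0.06 and 1.39 ± 0.07, and DPYSL3 fell in both, by -1.26 ± 0.14 and -1.02 ± 0.08. UCHL1 fell in LNCaP from 7.496 ± 2.09 to 0.358 ± 0.199 CPM (-4.38 on the log2 scale, and -5.04 without the second miR-375 library). The neuronal stathmin STMN2 had at most 10 counts in a library. Around NCAM1, the adhesion list had 4 risen and 3 fallen of 15 in LNCaP (46.7% called against 32.6% of all genes, median 0.33). In PC3 5 rose and 3 fell (53.3% against 43.0%, median 0.37). In both lines CADM2, CNTN2 and CELSR3 rose, and NCAM2 and CNTN1 fell. CADM2 rose by 1.24 ± 0.27 and 1.67 ± 0.18. The NCAM2 change in LNCaP was -0.12 ± 0.04, a call that ended with DESeq2 (-0.083, adjusted p = 0.262). CNTN1 fell by -0.45 ± 0.10 in PC3, and in LNCaP CNTN1 and CNTN2 were under 1 CPM.

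Beside INSM1, 23 of 32 listed neuroendocrine transcription factors and regulators passed the filter. In LNCaP 4 rose and 5 fell, or 39.1% called against 32.6% of all genes, with a median of 0.00 (-0.10 with genes at 0 counts set to the floor). In PC3 8 rose and 2 fell, or 43.5% called against 43.0%, with a median of 0.19. The neuronal transcription factor NEUROD1 and the splicing factor SRRM4 had at most 4 counts in any library, and SOX2 at most 8. MYCL rose in both lines, by 0.50 ± 0.14 in LNCaP, where the call ended without the second control (adjusted p = 0.0843), and by 1.97 ± 0.15 in PC3. EZH2, the Polycomb methyltransferase, fell by -0.71 ± 0.08 and -0.45 ± 0.08. ONECUT2 moved in opposite directions, by -0.66 ± 0.13 in LNCaP and 1.32 ± 0.13 in PC3, and so did HES6, by -0.83 ± 0.09 and 0.69 ± 0.13. FOXA1, the luminal pioneer factor, fell in LNCaP from 605 ± 7.74 to 547 ± 5.92 CPM and rose in PC3 from 87.8 ± 4.002 to 225 ± 13.6 CPM. With scaling by total counts alone the median of all genes moved to 0.12 in LNCaP. Whether the small FOXA1 fall in LNCaP held there is not given. FOXA2 fell in PC3 by -1.11 ± 0.07.

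Of 23 tested genes of the REST complex and its regulators, 5 rose and 10 fell in LNCaP (65.2% called, median -0.06) and 8 rose and 6 fell in PC3 (60.9%, median 0.04). The LNCaP balance turned to 8 risen and 6 fallen with total-count scaling. RCOR2, a CoREST scaffold, rose in both lines, by 0.96 ± 0.19 and 2.13 ± 0.17, and SUV39H1, a histone H3 methyltransferase, fell in both, by -1.12 ± 0.11 and -1.35 ± 0.11. SIN3A, a corepressor scaffold that REST binds, also fell in both, by -0.57 ± 0.05 in LNCaP and from 106 ± 0.142 to 91.5 ± 2.76 CPM in PC3. Of 40 tested genes reported as REST targets, members left out, 15 rose and 3 fell in LNCaP, with a median of 0.42 (0.38 with genes at 0 counts set to the floor), and 13 rose and 4 fell in PC3, with a median of 0.52 (0.37). The called share was 45.0% in LNCaP and 42.5% in PC3, against 32.6% and 43.0% of all genes. REST itself was called in LNCaP and not in PC3. Higher in both lines were 9 genes, among them VSTM2L (1.58 ± 0.17 in LNCaP), DISP2 (1.14 ± 0.21), MAPK8IP1 (0.64 ± 0.07) and MAPK8IP2 (0.75 ± 0.08 and, in PC3, 1.58 ± 0.14). The share of all tested genes higher in both lines is not given here, so these 9 are not set against a background. The difference between the lines was called for 8 of the 40 (20.0%, against 26.5% of all genes), 4 in each direction.

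With total-count scaling the median of all genes moved to 0.12 in LNCaP and 0.10 in PC3, and 4719 genes rose and 2613 fell in LNCaP, in place of 2927 and 3933. In LNCaP the lists then gave 5 risen and 1 fallen for granins, 17 and 3 for synaptic vesicles, 6 and 1 for adhesion and 5 and 4 for transcription factors, which turns the balance of the last. In PC3 adhesion gave 7 and 2, and reported REST targets 15 and 2. Over all genes in PC3 5672 then rose and 3602 fell, in place of 4679 and 4380.

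**Figure D3:**
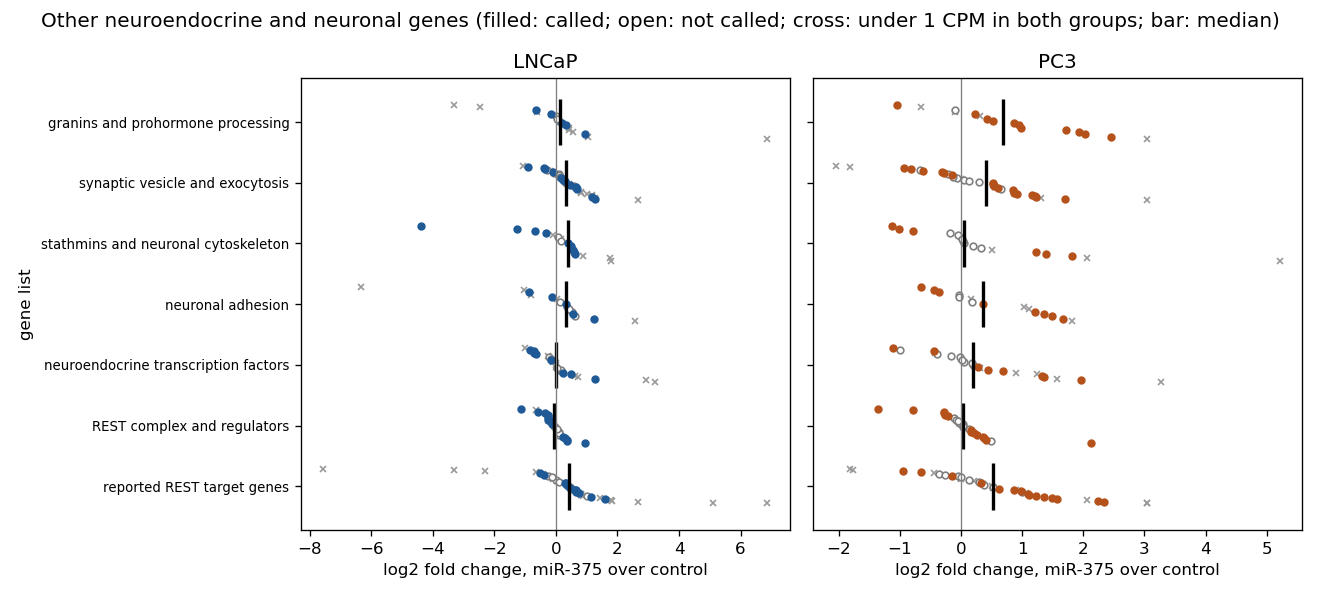
Log2 fold change of miR-375 over control (horizontal axes) for the tested genes of 7 lists, in LNCaP on the left and PC3 on the right, with filled points called, open points not called, crosses under 1 CPM in both groups and a bar at each list's median. The granin and prohormone list has its median at 0.15 in LNCaP and 0.70 in PC3, and every list spreads to both sides of 0 in both lines.

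**Figure D4:**
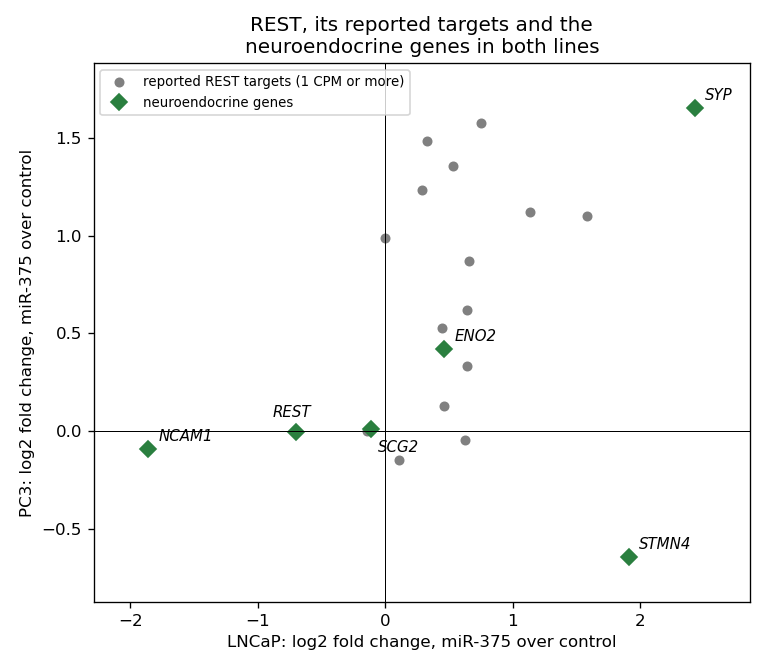
Log2 fold change with miR-375 in LNCaP (horizontal axis) against PC3 (vertical axis) for 15 reported REST targets of at least 1 CPM in a group of each line (grey) and the 6 tested members (green). Of the grey points 11 lie above 0 in both lines, SYP and ENO2 lie there too, and REST lies at -0.70 and -0.00. The share of all tested genes above 0 in both lines is not given.

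The genes most like SYP were sought by Pearson's r of log2 CPM over the 8 libraries, each taken as its deviation from the mean of its line. They were ENSA (0.998), NCKAP5L (0.997) and ARHGAP35 (0.996), and 379 tested genes had an r above 0.95, so that the measure mainly reads a rise in both lines. Their own log2 changes were smaller, at 0.28, 0.73 and 0.33 in LNCaP. For REST the highest were RNU6-127P, CARTPT and SNORA13 (0.997 each), which had 0 counts in PC3. Among 10341 genes of at least 10 CPM, a limit chosen after seeing those, they were RPF2 (0.996), UGT2B11 (0.995) and KLK3 (0.994). Of these, UGT2B11 and KLK3 also had 0 counts in every PC3 library. Within the members r was 0.957 for SYP with ENO2 and -0.806 for SYP with REST. These are descriptions over 8 libraries that share groups and scaling.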

How the data were processed

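The members and the gene lists were chosen with earlier results of these data known. The authors deposited whole-number counts per gene, not normalized. The submitters' processing notes name hg38, STAR 2.7.1a, fastp, featureCounts and DESeq2, with annotation and strand setting not given in the sources used here. Poly(A) RNA, per the labels' protocols, was made into dUTP-marked libraries and read as 150-base pairs. Of 60625 lines, 3 broken ones (ANK2) were left out and 60622 used. Counts of 1 to 20 were even in 68.1% to 70.3% of cases per library, and whether mates were counted singly is not stated, so halved counts were tried. Genes passing filterByExpr (21066) were fitted in 1 model of 4 groups (TMM, glmQLFit robust, glmQLFTest, 4 residual degrees of freedom) with edgeR 4.0.16 in R 4.3.3, and checked on simulated data. The SE is the log2 fold change divided by the square root of F. DESeq2 1.42.0 and limma 3.58.1 (voom) were alternatives, with total-count scaling, no filter, each line alone, a replicate block and each library left out. Exact Poisson intervals and floors cover counting error alone, because without molecular identifiers PCR copies of a molecule cannot be told from others. They would be too narrow if each mate of a pair was counted. The intervals of log2 changes come from the quasi-likelihood fit and include the spread between libraries. Replicates of a group differed by more than sampling noise (chi-square per degree of freedom 3.65 to 3.82), and none was treated as a duplicate. Beside the members, named genes were up to 6 per list and line, called and at least 1 CPM in a group, by size of change, and the 3 genes most like SYP and REST. Genes in several lists count in each. Exons are from GENCODE 29.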

Additional observations from a re-analysis of the deposited data

Results flagged for a closer look

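The change of REST with miR-375 differed between the lines: the LNCaP change minus the PC3 change was -0.69 on the log2 scale, by a test of the difference itself in edgeR's quasi-likelihood model (adjusted p = 1.75e-08), with REST lower in 2 of 2 LNCaP miR-375 libraries and the PC3 groups overlapping. With each library left out in turn it ran from -0.71 to -0.59.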

How the results depend on the processing

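Across the settings tried, the calls of SYP and ENO2 in both lines and of REST in LNCaP and in the difference between lines held in each one, with leave-one-out ranges of 2.25 to 2.68 and 1.47 to 1.85 for SYP, 0.45 to 0.57 and 0.39 to 0.44 for ENO2, and -0.69 to -0.62 for REST in LNCaP. The number of members called in the difference between lines ran from 1 to 2 with a library left out. A fit without a library assumes that the lone sample of a group varies like the other groups. Signs turned only for changes that were not called, and the cause was not tested. SCG2 turned in LNCaP with limma-voom (0.14) and total-count scaling (0.013), in PC3 with DESeq2 (-0.0053), no filter (-0.019) and PC3 alone (-0.012), and in the line difference with limma-voom (0.11). Its leave-one-out ranges were -0.75 to 1.26 in LNCaP, -0.25 to 0.32 in PC3 and -0.74 to 1.28 for the difference. REST in PC3 turned with total-count scaling (0.073) and ran from -0.031 to 0.018. NCAM1 ran from -4.97 to 0.88 in PC3 and from -2.74 to 3.11 for the difference, and STMN4 from -4.57 to 3.93 and from -2.02 to 6.49. Same-numbered replicates of the miR-375 and control groups did not deviate together (correlations 0.018 in LNCaP and 0.010 in PC3), and a replicate block left every member's call as it was, with 6617 genes called in LNCaP and 8777 in PC3. All-gene splits of risen and fallen in LNCaP were 3634 and 3054 with no filter. With a library left out the genes called fell to 4 in the LNCaP adhesion list (without the first control), to 5 in its transcription factor list (without either control) and to 5 in the PC3 adhesion list (without the second miR-375 library). Depth limits CHGA, CHGB, INSM1, SCG2 and, in PC3, NCAM1 and STMN4.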

Other observations

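SLC17A7, the gene of a vesicular glutamate transporter that loads synaptic vesicles, was singled out after its values were seen. Its level was 1.06 ± 0.207 CPM in control LNCaP and 2.98 ± 0.769 with miR-375, and 0.876 ± 0.174 CPM in control PC3 and 4.03 ± 0.780 with miR-375 (SD, n = 2). By edgeR's quasi-likelihood test it rose in both lines, by 1.49 ± 0.32 (adjusted p = 0.000236) and 2.20 ± 0.31 (adjusted p = 2.19e-07) on the log2 scale. The difference between the lines was not called (adjusted p = 0.277). The other vesicular glutamate transporter on the list of neuron markers, SLC17A6, had 0 counts in every library.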
